A study of Mus musculus with 12 samples.

Results

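The comparison set isolated mouse glomeruli that lacked both receptors for tumor necrosis factor (TNF) against wildtype glomeruli, after both had been exposed to TNF. It took 6 of the 12 arrays of the study, 3 of Tnfr1,2-/- and 3 of wildtype glomeruli, chosen by their labelled genotype, and covered the 18194 genes whose probe sets carry a single gene symbol. Wildtype mice were C57BL/6J, and the mutants carried the alleles Tnfrsf1atm1Mak and Tnfrsf1btm1Mwm, crossed to the same background per the labels. Genes close to the disrupted loci may therefore still come from the strain in which the alleles were made. By the methods, the double mutants and the wildtype controls were both bred by crossing the single mutants. Whether sequence of that strain elsewhere in the genome differed between the samples was not tested. All mice were males aged 6 to 8 weeks, and the receptor genes were disrupted in every cell, so that glomerular cells and any leukocytes in the glomeruli lacked them alike. Glomeruli were collected on magnetic beads after perfusion, cultured, starved of serum and then given murine TNF at 50 ng/ml for 12 hours, with 5000 glomeruli per culture. The arrays came from 3 independent preparations per genotype. Neither the labels nor the methods say whether each preparation came from separate mice, so that p-values measure only the spread between these samples. Since unstimulated glomeruli were not analysed here, a lower level in the mutant can come from a missing response to the added TNF, from TNF made by the cultured tissue itself or from a difference present before the culture, and these cannot be told apart.

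TNF is a cytokine that binds 2 receptors, TNFR1, encoded by Tnfrsf1a, and TNFR2, encoded by Tnfrsf1b. TNFR1 is found on nearly every cell type and recruits adaptor proteins, ubiquitin ligases and kinases that release the transcription factor NF-kB from its inhibitors and activate MAP kinases; it can also start apoptosis. TNFR2 lacks a death domain, binds TRAF proteins directly and is found on fewer cell types. The glomerulus is a capillary tuft of endothelial cells held by mesangial cells and covered by podocytes, and in nephritis these cells answer TNF with adhesion molecules and chemokines that draw leukocytes into the tuft.

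Levels below are log2 values, so that a difference of 1 is a doubling, and values of single arrays are given in the order of replicates 1, 2 and 3. Array medians lay between 5.59 and 5.64. Control probe sets at the 3' and the 5' end of beta-actin differ more as RNA or labelling gets poorer, and by this difference the arrays fell into 2 sets. The difference was 0.87, 0.67 and 1.83 on the wildtype arrays and 0.86, 1.82 and 2.30 on the Tnfr1,2-/- arrays, so that 1 wildtype and 2 mutant arrays fell into the poorer set. A principal component analysis of the 6 arrays placed 55.2% of the variance on a first component whose scores were 36.3, 34.0 and -8.3 for wildtype and 22.9, -26.9 and -57.9 for Tnfr1,2-/- arrays. The arrays with a large 3' minus 5' difference therefore also had the lowest scores. Changes within each set are given below only for Nfkb2 and, as counts, for the called genes. Other genes also differed in size of change between the sets. Mmp9 changed by -2.6 within the set of smaller difference and by -1.13 within the poorer set, and Aplnr by 1.17 and 2.3. For the remaining genes the dependence on the set is not shown. Wildtype replicate 2 stood apart in Gbp2b, a guanylate-binding protein, with a level of 4.39 beside 10.79 and 11.45 on the other wildtype arrays, while its receptor transcripts were at the level of the other wildtype arrays. Whether this sample differs from its label in strain or identity was not tested, and the counts without it are given with the main counts.

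Transcripts of both targeted genes were lower in the mutant. Tnfrsf1b had levels of 7.77, 7.71 and 7.41 on the wildtype arrays and 5.51, 5.37 and 5.57 on the Tnfr1,2-/- arrays. It was 4.43-fold lower (log2 change -2.15, SE 0.329, adjusted p = 0.00616, log2 change -1.12 with adjusted p = 0.0551 as the mean of its probe sets). Tnfrsf1a had levels of 10.70, 10.73 and 10.23 on the wildtype arrays and 9.61, 9.14 and 9.11 on the Tnfr1,2-/- arrays. The difference made it 2.41-fold lower (log2 change -1.27, SE 0.237, adjusted p = 0.0228, called in 2 of 6 refits with an adjusted p of up to 0.125, not called with the 6 arrays alone, adjusted p = 0.0546). Of the arrays whose omission ended the call, wildtype replicates 1 and 2 left adjusted p values of 0.11 and 0.125, and replicates 2 and 3 of Tnfr1,2-/- left 0.108 and 0.0952. The groups did not overlap for either gene. Transcript of a disrupted gene can still be detected where the probes lie outside the disrupted part, and the position of the probes was not analysed here, so a remaining signal says nothing about receptor protein.

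In the linear model with moderated variance (limma), 160 genes were called lower and 76 higher in Tnfr1,2-/- than in wildtype glomeruli, which needed an adjusted p below 0.05 together with a 1.5-fold change or more. These calls made up 0.879% and 0.418% of the 18194 genes tested. The counts of called list members below are to be read beside these shares. The decreases were deeper than the increases were high: the median fold was 3.19 among genes called lower, with quartiles of 2.37 and 4.65 and a largest value of 50.9, and 2.65 among genes called higher, with quartiles of 2.15 and 3.52 and a largest value of 11.7. Of the genes called lower, 51 fell at least 4-fold and 13 at least 16-fold. Of those called higher, 11 rose at least 4-fold and none 16-fold. No called gene had overlapping groups, beside 12.4% of all genes whose groups did not overlap.

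The size of the difference is described for each array, over genes that were chosen for their difference between these same arrays. Over the genes called lower, the median difference from the wildtype mean was -0.08, 0.08 and 0.01 on the wildtype arrays and -1.64, -1.57 and -1.66 on the Tnfr1,2-/- arrays. Over those called higher it was 0.05, -0.14 and 0.11 on the wildtype arrays and 1.15, 1.45 and 1.56 on the Tnfr1,2-/- arrays. Within the array set of smaller 3' minus 5' difference, all 160 lower genes and 73 of the 76 higher genes changed by 1.5-fold or more. Within the poorer set 157 and 76 did. The direction within a set was fixed, since no called gene had overlapping groups, and these same arrays gave the calls. The counts fell to 97 lower and 33 higher genes without wildtype replicate 2, to 39 higher genes without wildtype replicate 1, and to 46 and 49 when Tnfr1,2-/- replicate 2 or 3 was left out. In all 6 refits that each left out 1 array, 92 of the lower and 30 of the higher genes were called. A gene given below as called was also called in all 6 refits unless the number is given. Where another summary of probe sets, filter, scaling or test ended a call or moved the change by over 1.5-fold, its value stands beside the gene if the gene's values are given. Ambiguous probe sets are those the array's maker marks x or s. Leaving out dim probe sets removed Clec5a, Cst7, Dkk1 and Olr1, and leaving out ambiguous ones removed C1s1. These filters therefore could not check the calls of these genes.

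The genes called lower were mostly well expressed in wildtype glomeruli. The wildtype level is part of the comparison that picked them, and a gene near background there can hardly be called lower. Of the genes called lower, 75 were among the 4549 genes of highest wildtype level, which is 1.65% of these, and 1 was among the 4549 of lowest level. The median level of these genes was 8.97 in wildtype and 7.12 in Tnfr1,2-/- glomeruli, and 34 of them had a mutant mean under the median of the array. Genes called higher were spread more evenly, with 5, 27, 28 and 16 in 4 bands of equal size from the lowest to the highest wildtype level.

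**Figure D1:**
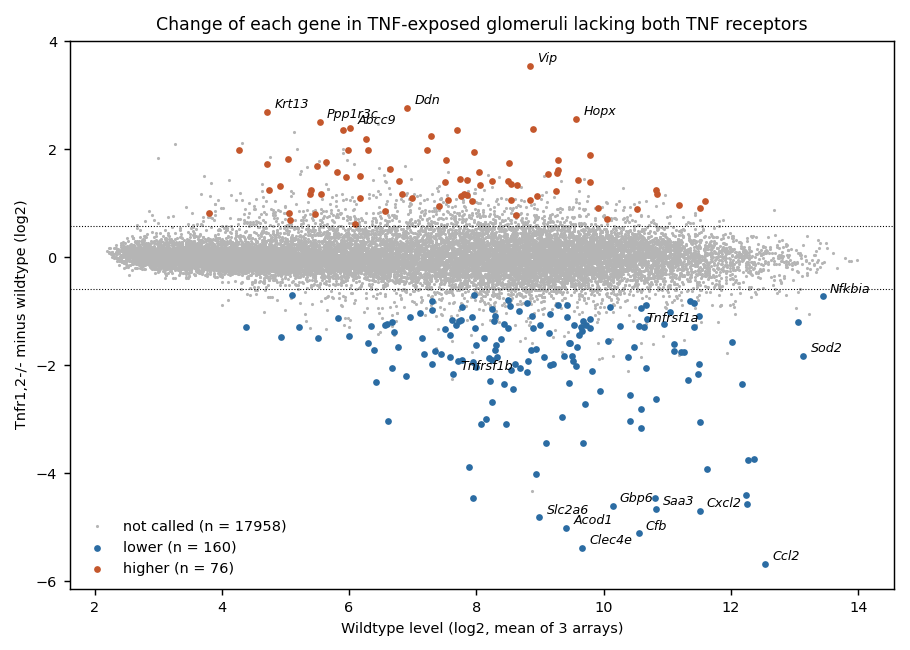
Tnfr1,2-/- minus wildtype difference (y axis, log2) against the mean wildtype level (x axis, log2, 3 arrays) for 18194 genes. Blue points are the 160 genes called lower, orange points the 76 called higher, grey points the rest, and dotted lines mark 1.5-fold; the decreases reach -5.67 (Ccl2) and the increases 3.55 (Vip).

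The share of promoters with a match to the kappaB consensus, the DNA element bound by NF-kB, was higher among the genes called lower than among all genes. RefSeq promoters of the build GRCm38.p6, from 250 bases before to 50 bases after the start, were found for 14369 of the genes tested. With both strands searched, 35 of 121 genes called lower held a match (28.9%, exact 95% interval 21 to 37.9), beside 7 of 56 called higher (12.5%, 5.18 to 24.1) and 1680 of all 14369 (11.7%). A gene with several promoters was counted if any of them held a match. The intervals treat genes as independent, which neighbours with a shared match, such as Cxcl2, Cxcl3 and Cxcl1, are not. The called genes were chosen in these same data, so the shares are a description and no test. On 1 strand alone the shares were 21.5%, 1.79% and 8.23%, while a looser form of the motif, which fixes only the G and C bases at its ends and contains every match of the consensus, was found in 67.8%, 71.4% and 66.3%. A match is a description of the letters and not evidence of binding. A match within the 250 bases before the start was found in 29 genes called lower, Tmem132e, Ccl9, AW112010, Sod2 and Gch1 among them. These bases are printed for 7 genes picked from them, so the choice does not represent all matches. The 7 are 5 secreted or surface signals of inflammation, a feedback inhibitor of NF-kB and a Toll-like receptor. The sequences read 5' to 3' along the gene, end at the base before the annotated start, and have the matches in capitals.
Cxcl2 (chr5:90903649-90903898, plus strand): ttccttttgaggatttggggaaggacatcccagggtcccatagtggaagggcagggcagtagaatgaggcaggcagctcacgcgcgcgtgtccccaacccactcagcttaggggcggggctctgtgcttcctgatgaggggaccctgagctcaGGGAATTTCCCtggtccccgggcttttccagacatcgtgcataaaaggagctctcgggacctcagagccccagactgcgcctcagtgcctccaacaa
Cxcl3 (chr5:90785851-90786100, plus strand): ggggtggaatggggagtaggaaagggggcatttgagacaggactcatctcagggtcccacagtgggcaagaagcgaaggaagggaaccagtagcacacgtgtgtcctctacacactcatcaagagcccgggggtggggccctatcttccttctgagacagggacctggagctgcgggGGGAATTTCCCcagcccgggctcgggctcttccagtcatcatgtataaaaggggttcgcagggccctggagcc
Cxcl1 (chr5:90890995-90891244, plus strand): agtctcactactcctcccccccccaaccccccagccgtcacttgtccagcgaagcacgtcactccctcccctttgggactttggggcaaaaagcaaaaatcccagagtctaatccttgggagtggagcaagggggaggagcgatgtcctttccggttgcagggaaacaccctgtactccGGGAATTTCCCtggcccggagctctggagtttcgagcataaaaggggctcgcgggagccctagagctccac
Cxcl10 (chr5:92348890-92349139, minus strand): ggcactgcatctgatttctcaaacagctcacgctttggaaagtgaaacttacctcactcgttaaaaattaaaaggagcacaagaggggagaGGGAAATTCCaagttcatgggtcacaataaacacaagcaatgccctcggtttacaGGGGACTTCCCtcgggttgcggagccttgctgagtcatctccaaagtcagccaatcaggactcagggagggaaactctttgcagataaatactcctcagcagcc
Madcam1 (chr10:79664309-79664558, plus strand): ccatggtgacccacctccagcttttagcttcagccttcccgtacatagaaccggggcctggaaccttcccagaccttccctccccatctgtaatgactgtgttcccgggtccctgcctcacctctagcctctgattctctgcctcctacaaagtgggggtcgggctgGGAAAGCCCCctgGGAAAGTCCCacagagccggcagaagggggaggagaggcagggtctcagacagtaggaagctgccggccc
Tnfaip3 (chr10:19015411-19015660, minus strand): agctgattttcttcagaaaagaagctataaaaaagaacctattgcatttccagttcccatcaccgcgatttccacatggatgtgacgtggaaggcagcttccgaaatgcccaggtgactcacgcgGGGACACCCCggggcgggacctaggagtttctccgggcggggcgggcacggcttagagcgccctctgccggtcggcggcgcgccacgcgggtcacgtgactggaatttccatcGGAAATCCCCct
Tlr2 (chr3:83841609-83841858, minus strand): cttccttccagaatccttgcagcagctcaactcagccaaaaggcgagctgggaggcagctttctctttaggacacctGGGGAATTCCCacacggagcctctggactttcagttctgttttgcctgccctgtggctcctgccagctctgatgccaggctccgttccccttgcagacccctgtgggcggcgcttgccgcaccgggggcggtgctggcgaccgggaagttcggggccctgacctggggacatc

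The neutrophil chemokine genes Cxcl2, Cxcl3 and Cxcl1, all on chromosome 5, share the same run in capitals, which matches on both strands and begins 97 bases before the start in Cxcl2, 73 in Cxcl3 and 71 in Cxcl1. Cxcl10 has matches that start 159 and 104 bases before the start, Madcam1 83 and 70, Tnfaip3 125 and 12, and Tlr2 173. Other motifs were searched after the values had been seen. The interferon-stimulated response element (ISRE) was found in 14% of genes called lower, 5.36% of genes called higher and 3.64% of all genes. The gamma-activated site, TTCNNNGAA, which STAT factors bind, was found in 16.5%, 10.7% and 8.57%. AP-1 sites, TGACTCA, were found in 14.9%, 7.14% and 5.34%. The CArG box of serum response factor (0.826%, 1.79% and 1.59%) and the RBPJ site of Notch signalling, GTGGGAA (7.44%, 10.7% and 7.40%), lay nearer to the share of all genes.

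Of the signalling chain itself, several feedback regulators and the kinases Ikbke and Map2k6 were lower. Among 29 adaptors and kinases of the TNF receptor complex, 5 were lower and none higher (17.2%, beside 0.879% of all genes), and among 16 NF-kB subunits, inhibitors and kinases 3 were lower and none higher, with a median change of -0.70 beside 0.00 over all genes. Tnfaip3 encodes A20, the ubiquitin editor that ends NF-kB signalling, and had levels of 11.61, 11.63 and 11.27 on the wildtype arrays and 9.96, 9.22 and 9.42 on the Tnfr1,2-/- arrays. In the mutant it was 3.92-fold lower (log2 change -1.97, SE 0.25, adjusted p = 0.00186). Traf1, an adaptor that NF-kB itself induces, had levels of 8.42, 8.15 and 8.07 on the wildtype arrays and 5.83, 6.27 and 5.66 on the Tnfr1,2-/- arrays. Traf1 was 4.9-fold lower (log2 change -2.29, SE 0.19, adjusted p = 8.9e-05, log2 change -1.64 with adjusted p = 0.00143 as the mean of its probe sets). Both groups of arrays lay well apart for these 2 genes. Tnip1, a partner of A20, was 3.37-fold lower (log2 change -1.75, SE 0.211, adjusted p = 0.00128). Birc2 and Birc3, the ubiquitin ligases cIAP1 and cIAP2, were 1.89-fold lower (log2 change -0.92, SE 0.15, adjusted p = 0.00956, called in 5 of 6 refits with an adjusted p of up to 0.0617, not called with the 6 arrays alone, adjusted p = 0.0547), and 2.43-fold lower (log2 change -1.28, SE 0.238, adjusted p = 0.0215, called in 1 of 6 refits with an adjusted p of up to 0.107, log2 change -1.03 with adjusted p = 0.16 as the mean of its probe sets). The count of 5 fell to 3 without wildtype replicate 2.

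Of the NF-kB group, Ikbke, a kinase related to the IkB kinases, had levels of 8.71, 8.77 and 8.19 on the wildtype arrays and 6.71, 6.18 and 6.53 on the Tnfr1,2-/- arrays. The mutant level was 4.23-fold lower (log2 change -2.08, SE 0.244, adjusted p = 0.00114). The inhibitor Nfkbie was 3.33-fold lower (log2 change -1.74, SE 0.318, adjusted p = 0.0198, called in 2 of 6 refits with an adjusted p of up to 0.0849). Nfkbia, the inhibitor IkB-alpha that is resynthesised on each round of NF-kB activation, had levels of 13.39, 13.39 and 13.55 on the wildtype arrays and 12.54, 12.85 and 12.79 on the Tnfr1,2-/- arrays. It was 1.65-fold lower (log2 change -0.72, SE 0.145, adjusted p = 0.035, called in 0 of 6 refits with an adjusted p of up to 0.146, log2 change -1.01 with adjusted p = 0.108 as the mean of its probe sets, not called with the 6 arrays alone and median centring, adjusted p = 0.123 and 0.108). The calls of both inhibitors thus depended on having all 6 arrays in most refits. The subunits are named here after their values were seen. Relb had a log2 change of -1.61 (adjusted p = 0.164), Nfkb2 one of -1.87 (adjusted p = 0.443) and Rela one of -0.88 (adjusted p = 0.567), and none passed the test. Nfkb2 had levels of 10.54, 10.44 and 8.92 on the wildtype arrays and 9.51, 7.51 and 7.28 on the Tnfr1,2-/- arrays, so that it was low on the 3 arrays of the poorer set in both genotypes; within the sets its change was -0.98 and -1.52. A block for the array set gave 6 lower genes of the NF-kB group in place of 3, and without wildtype replicate 1, 2 or 3 it was 1.

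Map2k6, a kinase that activates p38, was the only 1 of 28 genes of MAP kinase, AP-1 and immediate-early type to be called. Its levels were 10.49, 10.67 and 10.57 on the wildtype arrays and 7.6, 8.17 and 7.52 on the Tnfr1,2-/- arrays, and it was 7.02-fold lower (log2 change -2.81, SE 0.325, adjusted p = 0.000996). Myc had levels of 10.29, 10.22 and 10.24 on the wildtype arrays and 10.05, 9.64 and 9.13 on the Tnfr1,2-/- arrays and did not pass the test (log2 change -0.64, adjusted p = 0.342). Of 26 IRF, STAT and SOCS genes, Irf1, an interferon regulatory factor, and Cish, a feedback inhibitor of cytokine receptors, were lower. Irf1 had levels of 11.28, 11.60 and 10.78 on the wildtype arrays and 9.98, 9.24 and 9.15 on the Tnfr1,2-/- arrays, and was 3.39-fold lower (log2 change -1.76, SE 0.327, adjusted p = 0.0215, called in 2 of 6 refits with an adjusted p of up to 0.122, not called with the 6 arrays alone, adjusted p = 0.0527). Cish had levels of 8.54, 8.56 and 8.47 on the wildtype arrays and 7.63, 7.66 and 7.58 on the Tnfr1,2-/- arrays, and was 1.87-fold lower (log2 change -0.90, SE 0.156, adjusted p = 0.0134, called in 2 of 6 refits with an adjusted p of up to 0.0762). Without wildtype replicate 1 or 2 or Tnfr1,2-/- replicate 2 or 3, neither of these 2 genes was called.

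Of 35 ligands and receptors of the TNF superfamily, 5 were lower (14.3%, beside 0.879% of all genes), the targeted receptors among them. None was higher. Fas, a death receptor, had levels of 7.94, 7.96 and 9.03 on the wildtype arrays and 6.44, 6.92 and 6.68 on the Tnfr1,2-/- arrays, and was 3.09-fold lower (log2 change -1.63, SE 0.305, adjusted p = 0.0229, called in 3 of 6 refits with an adjusted p of up to 0.0803, not called with the 6 arrays alone, adjusted p = 0.0944). The ligand Tnfsf9 (4-1BBL) was 1.9-fold lower (log2 change -0.92, SE 0.161, adjusted p = 0.0142, called in 4 of 6 refits with an adjusted p of up to 0.0676, not called with the 6 arrays alone, adjusted p = 0.0643), and Tnfsf13b (BAFF), a survival factor of B cells, was 2.14-fold lower (log2 change -1.09, SE 0.221, adjusted p = 0.035, called in 1 of 6 refits with an adjusted p of up to 0.116, log2 change -0.57 with adjusted p = 0.165 as the mean of its probe sets, not called with the 6 arrays alone, median centring, cyclic loess and SAM, adjusted p = 0.214, 0.0611, 0.0624 and 0.0503). The count without a single array ran from 2 to 4. The gene of TNF itself had levels of 6.79, 6.90 and 6.26 on the wildtype arrays and 5.30, 5.60 and 6.31 on the Tnfr1,2-/- arrays and did not pass the test (log2 change -0.91, adjusted p = 0.141).

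Chemokines were among the genes with the largest decreases. Of 17 CC chemokines 4 were lower (23.5%), and of 17 CXC and other chemokines 7 were lower (41.2%), a count that held whichever array was left out; none of either group was higher. Ccl2, the main attractant of monocytes, had levels of 12.51, 12.75 and 12.35 on the wildtype arrays and 7.30, 6.67 and 6.63 on the Tnfr1,2-/- arrays. The difference made it 50.9-fold lower (log2 change -5.67, SE 0.353, adjusted p = 1.13e-05), the largest decrease of all genes called. Ccl7, a related monocyte attractant, had levels of 9.02, 8.61 and 9.63 on the wildtype arrays and 5.63, 5.52 and 5.84 on the Tnfr1,2-/- arrays, and Ccl5, which draws T cells and monocytes, levels of 9.56, 9.76 and 9.72 on the wildtype arrays and 6.08, 6.73 and 5.89 on the Tnfr1,2-/- arrays. Ccl7 was 10.7-fold lower (log2 change -3.43, SE 0.343, adjusted p = 0.000372), and Ccl5 was 10.9-fold lower (log2 change -3.44, SE 0.348, adjusted p = 0.000392). Ccl9 was 4.39-fold lower (log2 change -2.13, SE 0.342, adjusted p = 0.00862, called in 5 of 6 refits with an adjusted p of up to 0.056).

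The CXC chemokines that draw neutrophils through CXCR2 held 4 genes that were lower. Cxcl2 had levels of 11.23, 11.60 and 11.70 on the wildtype arrays and 6.15, 7.03 and 7.26 on the Tnfr1,2-/- arrays. In the mutant it was 25.9-fold lower (log2 change -4.69, SE 0.338, adjusted p = 2.96e-05). Cxcl3 had levels of 7.45, 8.03 and 8.34 on the wildtype arrays and 3.37, 3.21 and 3.84 on the Tnfr1,2-/- arrays, and was 22.1-fold lower (log2 change -4.46, SE 0.329, adjusted p = 3.26e-05). The mutant arrays of both genes lay at least 3 units under the lowest wildtype array. Cxcl1, whose promoter carries the same run, had levels of 11.98, 12.27 and 12.28 on the wildtype arrays and 9.64, 10.10 and 9.77 on the Tnfr1,2-/- arrays, and was 5.06-fold lower (log2 change -2.34, SE 0.304, adjusted p = 0.00216). Cxcl5 was 8.17-fold lower (log2 change -3.03, SE 0.348, adjusted p = 0.000963). Of the chemokines that draw T cells through CXCR3, Cxcl10 had levels of 12.09, 12.16 and 12.47 on the wildtype arrays and 7.55, 8.19 and 7.76 on the Tnfr1,2-/- arrays and Cxcl9 levels of 7.39, 7.90 and 8.36 on the wildtype arrays and 3.66, 3.98 and 4.36 on the Tnfr1,2-/- arrays. Cxcl10 was 21.2-fold lower (log2 change -4.40, SE 0.346, adjusted p = 6e-05), and Cxcl9 was 14.7-fold lower (log2 change -3.88, SE 0.314, adjusted p = 7.4e-05, log2 change -2.42 with adjusted p = 0.0002 as the mean of its probe sets). Cxcl16, a membrane-bound ligand of CXCR6, was 5.82-fold lower (log2 change -2.54, SE 0.312, adjusted p = 0.00148). Other members did not pass the test: Cxcl12 and Cxcl13, named after their values were seen, had log2 changes of 0.43 (adjusted p = 0.512) and 1.09 (adjusted p = 0.605).

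**Figure D2:**
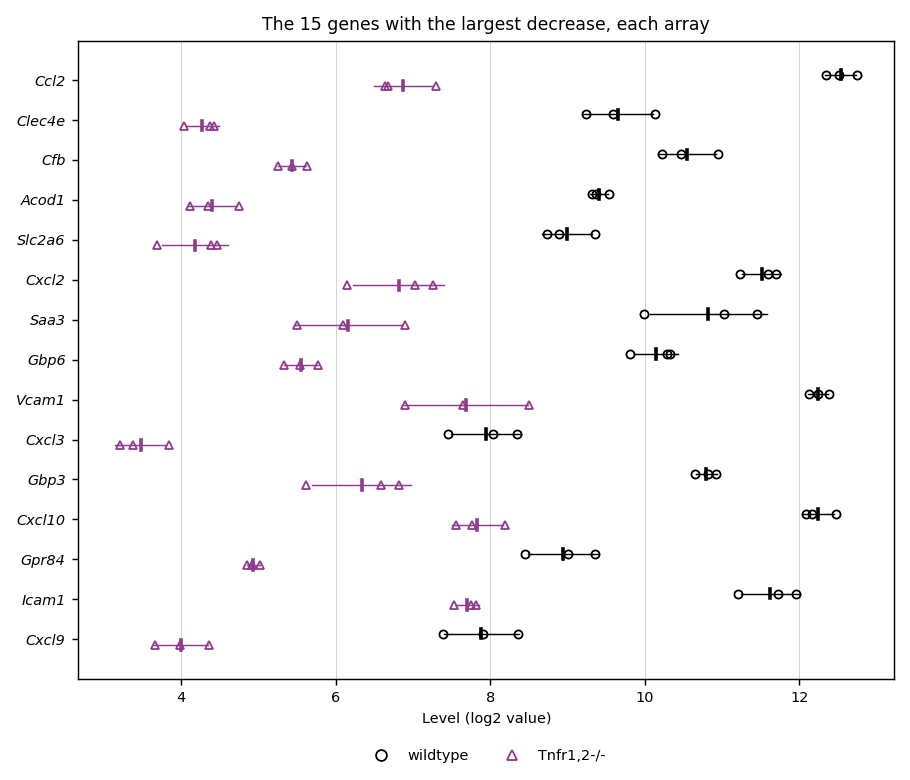
Level (x axis, log2) of the 15 genes with the largest decrease on each wildtype array (circles) and each Tnfr1,2-/- array (triangles); vertical bars are means and horizontal lines 1 SD of 3 arrays. Only called genes whose groups did not overlap were drawn, so the 3 mutant arrays lie to the left of the 3 wildtype arrays by this choice. The changes run from Ccl2 (-5.67) to Cxcl9 (-3.88).

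Of 21 chemokine receptors only Ccrl2, an atypical receptor that holds chemerin on the cell surface, was lower. It had levels of 8.17, 8.52 and 8.46 on the wildtype arrays and 6.99, 6.90 and 6.69 on the Tnfr1,2-/- arrays and was 2.87-fold lower (log2 change -1.52, SE 0.199, adjusted p = 0.00222). Among 54 interleukins, colony-stimulating factors and their receptors, 4 were lower (7.41%, beside 0.879% of all genes) and none higher. The median change was -0.25. Il23a, the p19 subunit of interleukin 23, had levels of 6.77, 6.56 and 6.99 on the wildtype arrays and 5.06, 5.28 and 5.0 on the Tnfr1,2-/- arrays, and was 3.16-fold lower (log2 change -1.66, SE 0.208, adjusted p = 0.00173). Il1rn, the interleukin 1 receptor antagonist, was 3.28-fold lower (log2 change -1.72, SE 0.284, adjusted p = 0.0101, called in 3 of 6 refits with an adjusted p of up to 0.0582, not called with the 6 arrays alone, adjusted p = 0.0669). The macrophage growth factor Csf1 had levels of 10.71, 10.66 and 10.08 on the wildtype arrays and 9.15, 8.66 and 8.69 on the Tnfr1,2-/- arrays, and was 3.14-fold lower (log2 change -1.65, SE 0.281, adjusted p = 0.0125, called in 2 of 6 refits with an adjusted p of up to 0.0762, log2 change -1.47 with adjusted p = 0.239 as the mean of its probe sets). Lif was 3.22-fold lower (log2 change -1.69, SE 0.341, adjusted p = 0.035, called in 1 of 6 refits with an adjusted p of up to 0.163, log2 change -1.14 with adjusted p = 0.0578 as the mean of its probe sets). The count fell to 1 without wildtype replicate 2 or Tnfr1,2-/- replicate 2 and to 2 without wildtype replicate 1 or Tnfr1,2-/- replicate 3. Il6, named after its values were seen, had levels of 8.29, 8.47 and 9.05 on the wildtype arrays and 6.00, 7.87 and 8.19 on the Tnfr1,2-/- arrays and did not pass the test (log2 change -1.25, adjusted p = 0.398).

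Of 23 adhesion molecules that leukocytes use on endothelium, 3 were lower. Vcam1, the ligand of VLA-4 on monocytes and lymphocytes, had levels of 12.12, 12.38 and 12.24 on the wildtype arrays and 7.65, 6.89 and 8.50 on the Tnfr1,2-/- arrays. Vcam1 was 23.7-fold lower (log2 change -4.57, SE 0.412, adjusted p = 0.000183). Icam1, the ligand of beta-2 integrins, had levels of 11.72, 11.95 and 11.20 on the wildtype arrays and 7.53, 7.75 and 7.82 on the Tnfr1,2-/- arrays. The mutant level was 15.1-fold lower (log2 change -3.92, SE 0.25, adjusted p = 1.17e-05). The wildtype levels of Vcam1 lay closer together than its mutant levels, which spread over more than 1 unit. Madcam1, best known from gut vessels, had levels of 8.99, 9.03 and 7.38 on the wildtype arrays and 6.00, 5.21 and 4.96 on the Tnfr1,2-/- arrays, and was 8.43-fold lower (log2 change -3.08, SE 0.557, adjusted p = 0.018, called in 2 of 6 refits with an adjusted p of up to 0.107). The selectins, named after their values were seen, did not pass the test: Sele had a change of -0.68 (adjusted p = 0.421) and Selp one of -0.51 (adjusted p = 0.699).

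Complement and acute phase genes were lower in part. Of 27 complement factors 4 were lower (14.8%). Cfb, factor B of the alternative pathway, had levels of 10.47, 10.95 and 10.22 on the wildtype arrays and 5.25, 5.62 and 5.43 on the Tnfr1,2-/- arrays. It was 34.6-fold lower (log2 change -5.11, SE 0.329, adjusted p = 1.17e-05). Serping1, the inhibitor of C1, had levels of 10.81, 10.78 and 10.44 on the wildtype arrays and 8.59, 8.83 and 8.47 on the Tnfr1,2-/- arrays, and was 4.12-fold lower (log2 change -2.04, SE 0.242, adjusted p = 0.0012). These 2 act in opposite directions, factor B as part of the convertase that amplifies complement and the C1 inhibitor as a brake on the classical pathway. The proteases C1s1 and C1ra of the C1 complex were 2.02-fold lower (log2 change -1.01, SE 0.162, adjusted p = 0.0086, called in 4 of 6 refits with an adjusted p of up to 0.0518), and 1.8-fold lower (log2 change -0.85, SE 0.157, adjusted p = 0.0205, called in 2 of 6 refits with an adjusted p of up to 0.12, not called with the 6 arrays alone and a mean-variance trend, adjusted p = 0.108 and 0.0512). Without wildtype replicate 1 or 2 the count was 2.

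Of 34 acute phase and antimicrobial proteins 4 were lower (11.8%). Saa3, a serum amyloid A made outside the liver, had levels of 9.99, 11.03 and 11.45 on the wildtype arrays and 6.09, 6.89 and 5.50 on the Tnfr1,2-/- arrays. The difference made it 25.3-fold lower (log2 change -4.66, SE 0.473, adjusted p = 0.000392). Haptoglobin, Hp, which binds free hemoglobin, had levels of 12.42, 12.36 and 12.35 on the wildtype arrays and 8.84, 8.90 and 8.16 on the Tnfr1,2-/- arrays, and was 13.4-fold lower (log2 change -3.74, SE 0.201, adjusted p = 6.23e-06). The 3 wildtype values of Hp lay closer together than the mutant values. Camp, the cathelicidin of neutrophils, was 3.26-fold lower (log2 change -1.71, SE 0.332, adjusted p = 0.0297, called in 1 of 6 refits with an adjusted p of up to 0.119), and Lbp, the lipopolysaccharide-binding protein, was 2.48-fold lower (log2 change -1.31, SE 0.256, adjusted p = 0.0306, called in 1 of 6 refits with an adjusted p of up to 0.146, log2 change -0.65 with adjusted p = 0.125 as the mean of its probe sets). Without wildtype replicate 1 or 2 or Tnfr1,2-/- replicate 1 the count was 2.

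Receptors of innate immunity were lower in part. Of 42 Toll-like, C-type lectin, scavenger and formyl peptide receptors 9 were lower (21.4%), and the count ran from 7 to 8 without a single array. Clec4e (Mincle), a receptor for mycobacterial glycolipid and dying cells, had levels of 9.24, 10.13 and 9.59 on the wildtype arrays and 4.03, 4.42 and 4.37 on the Tnfr1,2-/- arrays. In the mutant it was 41.6-fold lower (log2 change -5.38, SE 0.314, adjusted p = 8.37e-06, log2 change -3.69 with adjusted p = 5.03e-05 as the mean of its probe sets). Gpr84, a receptor for medium-chain fatty acids on myeloid cells, had levels of 9.01, 9.35 and 8.45 on the wildtype arrays and 4.92, 5.02 and 4.85 on the Tnfr1,2-/- arrays, and was 16.1-fold lower (log2 change -4.01, SE 0.273, adjusted p = 1.79e-05). The mutant levels of both lay under the array median on every array. Tlr2, the receptor for bacterial lipoproteins, had levels of 8.09, 7.94 and 7.81 on the wildtype arrays and 5.93, 6.09 and 6.00 on the Tnfr1,2-/- arrays, and was 3.83-fold lower (log2 change -1.94, SE 0.13, adjusted p = 1.67e-05). Marco, a scavenger receptor, was 8.43-fold lower (log2 change -3.08, SE 0.437, adjusted p = 0.0037, log2 change -2.21 with adjusted p = 0.00776 as the mean of its probe sets). Clec5a was 2.79-fold lower (log2 change -1.48, SE 0.204, adjusted p = 0.00305), and Fpr2, which senses formyl peptides and serum amyloid A, was 3.44-fold lower (log2 change -1.78, SE 0.272, adjusted p = 0.00601, not called with the 6 arrays alone, adjusted p = 0.08). None of 20 macrophage markers was called by limma, and their summed level ran from 12.92 to 13.51 on the wildtype and from 12.94 to 13.32 on the Tnfr1,2-/- arrays. In whole glomeruli, fewer cells of a type and less RNA per cell cannot be told apart.

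Of 21 NOD-like receptors, inflammasome components and inflammatory caspases, 2 were lower (9.52%, beside 0.879% of all genes). Casp12 had levels of 8.58, 8.95 and 8.92 on the wildtype arrays and 6.58, 6.99 and 7.10 on the Tnfr1,2-/- arrays, and was 3.79-fold lower (log2 change -1.92, SE 0.257, adjusted p = 0.00259). Gsdmd, the pore-forming protein of pyroptosis, had levels of 9.28, 9.08 and 9.07 on the wildtype arrays and 8.04, 7.91 and 7.29 on the Tnfr1,2-/- arrays, and was 2.64-fold lower (log2 change -1.40, SE 0.215, adjusted p = 0.00616). Their groups did not overlap.

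Genes that interferons are known to induce were lower in part. Of 14 guanylate-binding proteins and immunity-related GTPases, which attack intracellular pathogens, 4 were lower (28.6%) and the median change was -0.51. Gbp6 had levels of 9.81, 10.32 and 10.29 on the wildtype arrays and 5.53, 5.33 and 5.77 on the Tnfr1,2-/- arrays, and Gbp3 levels of 10.65, 10.82 and 10.92 on the wildtype arrays and 5.61, 6.58 and 6.82 on the Tnfr1,2-/- arrays. Gbp6 was 24.2-fold lower (log2 change -4.60, SE 0.487, adjusted p = 0.000561), and Gbp3 was 22-fold lower (log2 change -4.46, SE 0.377, adjusted p = 0.000103). Gbp2 had levels of 12.08, 12.39 and 12.33 on the wildtype arrays and 7.73, 8.82 and 9.01 on the Tnfr1,2-/- arrays, and was 13.4-fold lower (log2 change -3.75, SE 0.352, adjusted p = 0.000232). Ifi47, an immunity-related GTPase, was 6.14-fold lower (log2 change -2.62, SE 0.377, adjusted p = 0.00414). Guanylate-binding proteins are close in sequence, so that their probe sets may share signal. Other GTPases of the list, named after their values were seen, did not pass the test: Irgm1 had a change of -0.39 (adjusted p = 0.647), Igtp one of -0.32 (adjusted p = 0.736) and Iigp1 one of 0.03 (adjusted p = 0.987).

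Of 45 interferon-stimulated antiviral genes 9 were lower and none was higher, and the median change was -0.25. Parp14 had levels of 9.15, 9.27 and 9.21 on the wildtype arrays and 7.34, 7.01 and 7.35 on the Tnfr1,2-/- arrays, and was 3.94-fold lower (log2 change -1.98, SE 0.223, adjusted p = 0.000879, log2 change -1.39 with adjusted p = 0.00301 as the mean of its probe sets). Its partner Parp9 was 2.72-fold lower (log2 change -1.44, SE 0.179, adjusted p = 0.00166). Ifitm1, a membrane protein that blocks viral entry, had levels of 9.79, 9.55 and 9.23 on the wildtype arrays and 7.29, 7.68 and 7.87 on the Tnfr1,2-/- arrays, and was 3.75-fold lower (log2 change -1.91, SE 0.238, adjusted p = 0.00166). Xaf1 was 2.99-fold lower (log2 change -1.58, SE 0.218, adjusted p = 0.00305, log2 change -0.88 with adjusted p = 0.0128 as the mean of its probe sets), Rtp4 was 3.58-fold lower (log2 change -1.84, SE 0.299, adjusted p = 0.0094, not called with the 6 arrays alone, adjusted p = 0.0561), and Ddx58, the RNA sensor RIG-I, was 2.16-fold lower (log2 change -1.11, SE 0.17, adjusted p = 0.00601, not called with the 6 arrays alone, adjusted p = 0.0632). Ifitm3, among the 6 lower genes of highest wildtype level, was 2.28-fold lower (log2 change -1.19, SE 0.251, adjusted p = 0.045, called in 0 of 6 refits with an adjusted p of up to 0.221, not called with cyclic loess, adjusted p = 0.0891). Most members of the list, 36 of 45, were not called.

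In antigen presentation, some inducible parts of the proteasome were lower. Of 7 subunits of the immunoproteasome and its activators 4 were lower (57.1%), with a median change of -1.09. Psmb8, a catalytic subunit, had levels of 10.23, 10.49 and 10.55 on the wildtype arrays and 7.35, 7.75 and 7.11 on the Tnfr1,2-/- arrays, and Psmb10 had levels of 11.68, 11.70 and 11.16 on the wildtype arrays and 8.91, 8.72 and 7.80 on the Tnfr1,2-/- arrays. Psmb8 was 8.11-fold lower (log2 change -3.02, SE 0.358, adjusted p = 0.0012, log2 change -1.77 with adjusted p = 0.00108 as the mean of its probe sets), and Psmb10 was 8.2-fold lower (log2 change -3.04, SE 0.367, adjusted p = 0.00133). Psmb9, the other catalytic subunit, had levels of 8.20, 8.67 and 8.95 on the wildtype arrays and 6.79, 7.04 and 6.08 on the Tnfr1,2-/- arrays, and was 3.91-fold lower (log2 change -1.97, SE 0.421, adjusted p = 0.0491, called in 0 of 6 refits with an adjusted p of up to 0.197, log2 change -1.97 with adjusted p = 0.0554 as the mean of its probe sets, log2 change -1.97 with adjusted p = 0.0526 without ambiguous probe sets). The activator subunit Psme1 was 2.12-fold lower (log2 change -1.09, SE 0.215, adjusted p = 0.0322, called in 0 of 6 refits with an adjusted p of up to 0.152, not called with the 6 arrays alone, adjusted p = 0.0666). Since Psmb9 and Psme1 were lost in every refit, the count was 2 without any 1 of the 6 arrays. None of 31 constitutive proteasome subunits was called by limma or by SAM, the test of the methods, and none had an unadjusted p under 0.05; 25 of them had a negative change, and their median change was -0.23. Psmd8 had levels of 11.88, 11.91 and 11.78 on the wildtype arrays and 11.85, 11.48 and 10.64 on the Tnfr1,2-/- arrays (log2 change -0.53, adjusted p = 0.618), and Psmd7 had a change of -0.47 (adjusted p = 0.677).

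Of 17 genes of MHC class I and its loading 3 were lower (17.6%), and 14 had a negative change with a median of -0.59. Tapbp, tapasin of the peptide-loading complex, had levels of 11.98, 12.26 and 11.79 on the wildtype arrays and 10.83, 10.25 and 10.22 on the Tnfr1,2-/- arrays, and was 2.98-fold lower (log2 change -1.57, SE 0.221, adjusted p = 0.00347, log2 change -2.14 with adjusted p = 0.377 as the mean of its probe sets). Its relative Tapbpl was 3.07-fold lower (log2 change -1.62, SE 0.236, adjusted p = 0.00446), and the peptide-trimming protease Erap1 was 1.85-fold lower (log2 change -0.88, SE 0.184, adjusted p = 0.0412, called in 1 of 6 refits with an adjusted p of up to 0.159, not called with the 6 arrays alone, a mean-variance trend, median centring and cyclic loess, adjusted p = 0.123, 0.0755, 0.117 and 0.0667). B2m, the light chain of class I molecules, had levels of 12.99, 13.28 and 13 on the wildtype arrays and 12.70, 12.41 and 12.38 on the Tnfr1,2-/- arrays and did not pass the test (log2 change -0.59, adjusted p = 0.512). Of 17 genes of MHC class II and co-stimulation, Cd274 (PD-L1), an inhibitory ligand, was 2.14-fold lower (log2 change -1.10, SE 0.221, adjusted p = 0.0341, called in 1 of 6 refits with an adjusted p of up to 0.185); it was not called without wildtype replicate 1, 2 or 3 or Tnfr1,2-/- replicate 2 or 3. Icosl had levels of 8.08, 8.28 and 6.51 on the wildtype arrays and 5.68, 5.01 and 5.39 on the Tnfr1,2-/- arrays and did not pass the test (log2 change -2.26, adjusted p = 0.0637).

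Matrix proteases were lower in 6 of 39 cases (15.4%, beside 0.879% of all genes), and 1 inhibitor was higher (2.56%, beside 0.418%). Mmp3 (stromelysin) had levels of 10.87, 11.51 and 11.60 on the wildtype arrays and 8.56, 9.46 and 9.13 on the Tnfr1,2-/- arrays, and was 4.82-fold lower (log2 change -2.27, SE 0.313, adjusted p = 0.00305). Mmp9 (gelatinase B) had levels of 7.85, 7.79 and 7.14 on the wildtype arrays and 5.22, 5.90 and 6.11 on the Tnfr1,2-/- arrays, and was 3.6-fold lower (log2 change -1.85, SE 0.272, adjusted p = 0.00465). Mmp13 was 2.37-fold lower (log2 change -1.24, SE 0.236, adjusted p = 0.0249, called in 1 of 6 refits with an adjusted p of up to 0.12), and Adamts9, which cuts proteoglycans, was 1.84-fold lower (log2 change -0.88, SE 0.153, adjusted p = 0.0134, called in 2 of 6 refits with an adjusted p of up to 0.0658, log2 change -0.22 with adjusted p = 0.866 as the mean of its probe sets). Adam17, the protease that sheds TNF and both of its receptors from the cell surface, had levels of 10.69, 10.62 and 10.47 on the wildtype arrays and 9.83, 9.44 and 9.67 on the Tnfr1,2-/- arrays, and was 1.92-fold lower (log2 change -0.94, SE 0.132, adjusted p = 0.00325, log2 change -1.32 with adjusted p = 0.448 as the mean of its probe sets, not called with the 6 arrays alone, adjusted p = 0.0546). Its 3 wildtype arrays all lay above its 3 mutant arrays, although the change was under 2-fold. Timp3, the tissue inhibitor that acts on Adam17, went the other way, with levels of 11.24, 11.31 and 11 on the wildtype arrays and 12.21, 12.05 and 12.20 on the Tnfr1,2-/- arrays, and was 1.96-fold higher (log2 change 0.97, SE 0.198, adjusted p = 0.0369, called in 0 of 6 refits with an adjusted p of up to 0.155, log2 change 0.67 with adjusted p = 0.5 as the mean of its probe sets). Without wildtype replicate 1 or 2 or Tnfr1,2-/- replicate 2 the count of lower genes was 3. Mmp9 and Camp were also the 2 called genes of the 12 neutrophil markers, whose summed level ran from 9.49 to 10.16 in wildtype and from 9.25 to 9.81 in Tnfr1,2-/- glomeruli; 8 of the 12 were under the array median on all 6 arrays, S100a8 and S100a9 at most at 5.23 and 4.83 among them, and the part of these cells in the changes was not tested.

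Of 27 cathepsins and protease inhibitors Serping1 and Cst7 were lower; Cst7, cystatin F of leukocytes, was 2.8-fold lower (log2 change -1.49, SE 0.239, adjusted p = 0.00875, not called with the 6 arrays alone, adjusted p = 0.0624). Of 26 genes of apoptosis 2 were lower (7.69%, beside 0.879% of all genes) and none was higher, with a median change of -0.05. Bid, which links death receptors to mitochondria, had levels of 9.48, 9.55 and 9.72 on the wildtype arrays and 8.22, 7.79 and 7.79 on the Tnfr1,2-/- arrays, and was 3.13-fold lower (log2 change -1.65, SE 0.157, adjusted p = 0.000261). Dram1, a lysosomal protein of autophagy, was 4.0-fold lower (log2 change -2.00, SE 0.184, adjusted p = 0.000207).

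Of 45 enzymes that make or remove itaconate, nitric oxide, prostanoids, arginine products and oxidants, 8 were lower (17.8%) and none was higher. Acod1, which makes itaconate in activated macrophages, had levels of 9.32, 9.54 and 9.37 on the wildtype arrays and 4.34, 4.75 and 4.11 on the Tnfr1,2-/- arrays. Acod1 was 32.2-fold lower (log2 change -5.01, SE 0.197, adjusted p = 4.79e-07). Sod2, the mitochondrial superoxide dismutase and a classical NF-kB target, had levels of 12.97, 13.14 and 13.29 on the wildtype arrays and 10.86, 11.51 and 11.57 on the Tnfr1,2-/- arrays, and was 3.54-fold lower (log2 change -1.82, SE 0.194, adjusted p = 0.000569). The wildtype and mutant levels of Sod2 lay apart by at least 1.4, and all 4 of its probe sets passed 1.5-fold. Arg2, arginase 2, had levels of 7.93, 8.18 and 8.60 on the wildtype arrays and 5.42, 5.40 and 5.88 on the Tnfr1,2-/- arrays, and was 6.37-fold lower (log2 change -2.67, SE 0.196, adjusted p = 3.26e-05, log2 change -2.08 with adjusted p = 0.00096 as the mean of its probe sets). Gch1, which makes the cofactor of nitric oxide synthases, was 3.53-fold lower (log2 change -1.82, SE 0.236, adjusted p = 0.00216). Ptges, a prostaglandin E synthase, was 3.73-fold lower (log2 change -1.90, SE 0.317, adjusted p = 0.0106, called in 3 of 6 refits with an adjusted p of up to 0.0656, not called with the 6 arrays alone, adjusted p = 0.0575), and Xdh, xanthine dehydrogenase, was 5.08-fold lower (log2 change -2.34, SE 0.401, adjusted p = 0.0126, called in 2 of 6 refits with an adjusted p of up to 0.0762). The count was 5 without wildtype replicate 2 and 13 when the array set was a block. Ptgs2, named after its values were seen, had levels of 9.5, 10.17 and 10.13 on the wildtype arrays and 7.40, 7.70 and 9.05 on the Tnfr1,2-/- arrays and did not pass the test (log2 change -1.88, adjusted p = 0.0548), and Nos2 lay near the array median at 5.98, 5.85 and 5.48 on the wildtype arrays and 5.48, 5.36 and 5.51 on the Tnfr1,2-/- arrays.

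Transporters were touched in a few cases. Of 31 genes of glucose transport and glycolysis only Slc2a6 was lower. This lysosomal member of the glucose transporter family had levels of 8.89, 9.35 and 8.73 on the wildtype arrays and 4.39, 4.46 and 3.68 on the Tnfr1,2-/- arrays. The mutant level was 28.1-fold lower (log2 change -4.81, SE 0.301, adjusted p = 1.13e-05). Slc2a3 had levels of 8.54, 8.33 and 8.47 on the wildtype arrays and 9.15, 8.79 and 9.20 on the Tnfr1,2-/- arrays and did not pass the test (0.60, adjusted p = 0.256). Of 31 genes of iron, zinc and copper handling 2 were lower (6.45%, beside 0.879% of all genes) and 1 higher (3.23%, beside 0.418%). Slc39a8, the zinc importer ZIP8, had levels of 6.98, 7.25 and 7.66 on the wildtype arrays and 4.98, 4.93 and 6.05 on the Tnfr1,2-/- arrays, and was 3.94-fold lower (log2 change -1.98, SE 0.29, adjusted p = 0.00465, not called with the 6 arrays alone, adjusted p = 0.0558). The metalloreductase Steap4 was 2.25-fold lower (log2 change -1.17, SE 0.179, adjusted p = 0.00622, log2 change -0.86 with adjusted p = 0.0869 as the mean of its probe sets). Slc40a1, ferroportin, the exporter of iron from cells, had levels of 7.38, 7.45 and 7.72 on the wildtype arrays and 8.65, 9.36 and 9.98 on the Tnfr1,2-/- arrays, and was 3.52-fold higher (log2 change 1.81, SE 0.349, adjusted p = 0.0273, called in 1 of 6 refits with an adjusted p of up to 0.122, not called with the 6 arrays alone, adjusted p = 0.0666); it was called only without Tnfr1,2-/- replicate 1.

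Of the 76 genes called higher 55 were on no gene list, and the list with the largest number of them was that of vessel tone. Of its 56 vasoactive peptides, receptors and second messenger genes 10 were higher (17.9%, beside 0.418% of all genes) and 2 lower. The median change was 0.12. Like all lists, this list was chosen with earlier results of these data known, so its share is a description. Vip, vasoactive intestinal peptide, a vasodilator, had levels of 9.0, 8.09 and 9.42 on the wildtype arrays and 12.16, 12.17 and 12.82 on the Tnfr1,2-/- arrays. It was 11.7-fold higher (log2 change 3.55, SE 0.329, adjusted p = 0.000211), the largest increase of all. Gucy1a2, a subunit of the soluble guanylate cyclase that senses nitric oxide, had levels of 7.71, 8.05 and 8.16 on the wildtype arrays and 9.46, 9.90 and 10.41 on the Tnfr1,2-/- arrays, and was 3.88-fold higher (log2 change 1.95, SE 0.249, adjusted p = 0.00193, log2 change 1.05 with adjusted p = 0.000417 as the mean of its probe sets). In both genes every mutant array lay more than 1 unit above the highest wildtype array. Abcc9, the regulatory subunit of the vascular potassium channel that ATP closes, had levels of 6.02, 5.49 and 6.54 on the wildtype arrays and 7.94, 8.33 and 8.99 on the Tnfr1,2-/- arrays, and was 5.29-fold higher (log2 change 2.40, SE 0.32, adjusted p = 0.00251, log2 change 1.66 with adjusted p = 0.0058 as the mean of its probe sets, log2 change 0.91 with adjusted p = 0.239 without ambiguous probe sets). Npr3, the clearance receptor of natriuretic peptides, was 2.96-fold higher (log2 change 1.57, SE 0.211, adjusted p = 0.00271, log2 change 1.07 with adjusted p = 0.303 as the mean of its probe sets), and Pde7b, a phosphodiesterase of cyclic AMP, was 3.0-fold higher (log2 change 1.59, SE 0.216, adjusted p = 0.00294, log2 change 0.81 with adjusted p = 0.0131 as the mean of its probe sets). The count was 6 without wildtype replicate 2.

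Further members called higher are named after their values were seen. Kcnj8, the pore subunit that pairs with Abcc9, had levels of 5.76, 5.39 and 6.28 on the wildtype arrays and 6.96, 8.06 and 7.14 on the Tnfr1,2-/- arrays, and was 2.99-fold higher (log2 change 1.58, SE 0.284, adjusted p = 0.0175, called in 4 of 6 refits with an adjusted p of up to 0.1, not called with the 6 arrays alone and SAM, adjusted p = 0.15 and 0.0519). Gucy1a1 was 2.55-fold higher (log2 change 1.35, SE 0.22, adjusted p = 0.00961, called in 4 of 6 refits with an adjusted p of up to 0.0627), Rgs2, a brake on vasoconstrictor receptors, was 3.74-fold higher (log2 change 1.90, SE 0.301, adjusted p = 0.00783, called in 5 of 6 refits with an adjusted p of up to 0.0518, not called with the 6 arrays alone, adjusted p = 0.0592), Ednrb, the endothelin B receptor, was 2.19-fold higher (log2 change 1.13, SE 0.173, adjusted p = 0.00601, log2 change 0.58 with adjusted p = 0.826 as the mean of its probe sets), and Pde8b was 2.37-fold higher (log2 change 1.24, SE 0.245, adjusted p = 0.0318, called in 1 of 6 refits with an adjusted p of up to 0.171). The 2 lower members were Ptgir, the prostacyclin receptor, with levels of 7.80, 8.06 and 8.12 on the wildtype arrays and 5.72, 5.79 and 6.38 on the Tnfr1,2-/- arrays, and Rgs17. Ptgir was 4.07-fold lower (log2 change -2.03, SE 0.229, adjusted p = 0.000879), and Rgs17 was 7.75-fold lower (log2 change -2.95, SE 0.423, adjusted p = 0.00389).

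Growth factors of vessels were higher in 4 of 37 cases (10.8%, beside 0.418% of all genes) and lower in 1 (2.7%, beside 0.879%). Vegfd, a ligand of VEGFR3, had levels of 9.03, 8.77 and 8.87 on the wildtype arrays and 11.48, 11.23 and 11.10 on the Tnfr1,2-/- arrays. The difference made it 5.19-fold higher (log2 change 2.38, SE 0.25, adjusted p = 0.000538). Bmx, a tyrosine kinase of arterial endothelium, had levels of 4.88, 5.19 and 5.06 on the wildtype arrays and 6.96, 6.63 and 7.02 on the Tnfr1,2-/- arrays, and was 3.54-fold higher (log2 change 1.83, SE 0.177, adjusted p = 0.000295). Angpt2, the context-dependent ligand of Tie2, had levels of 10.03, 10.06 and 10.10 on the wildtype arrays and 10.56, 10.99 and 10.78 on the Tnfr1,2-/- arrays, and was 1.64-fold higher (log2 change 0.71, SE 0.148, adjusted p = 0.0403, called in 1 of 6 refits with an adjusted p of up to 0.174, log2 change 0.67 with adjusted p = 0.215 as the mean of its probe sets, not called with the 6 arrays alone, a mean-variance trend and dim probe sets left out, adjusted p = 0.157, 0.0659 and 0.0506). Nrp2, a co-receptor of VEGF and semaphorins, went down, with levels of 10.03, 10.13 and 10.06 on the wildtype arrays and 8.46, 8.58 and 8.57 on the Tnfr1,2-/- arrays, and was 2.9-fold lower (log2 change -1.54, SE 0.21, adjusted p = 0.00298). Aplnr, the apelin receptor, was 3.94-fold higher (log2 change 1.98, SE 0.388, adjusted p = 0.0306, called in 2 of 6 refits with an adjusted p of up to 0.159, log2 change 1.01 with adjusted p = 0.0624 as the mean of its probe sets, not called with the 6 arrays alone and SAM, adjusted p = 0.165 and 0.0575). Without wildtype replicate 1 or 2 or Tnfr1,2-/- replicate 2 the count of higher genes was 2.

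Of 23 Notch receptors, ligands and targets, Heyl, a target of Notch3 in mural cells, was higher and none was lower. Heyl had levels of 7.88, 7.11 and 6.89 on the wildtype arrays and 10.06, 9.33 and 9.25 on the Tnfr1,2-/- arrays, and was 4.77-fold higher (log2 change 2.25, SE 0.316, adjusted p = 0.00344). Nrarp, another target, had levels of 8.51, 7.69 and 8.63 on the wildtype arrays and 9.09, 9.32 and 9.20 on the Tnfr1,2-/- arrays and did not pass the test (0.93, adjusted p = 0.0685). Notch3, named after its values were seen, had levels of 8.00, 7.0 and 7.61 on the wildtype arrays and 9.16, 8.24 and 8.68 on the Tnfr1,2-/- arrays, with a change of 1.16 (adjusted p = 0.193).

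Of 55 genes of TGF-beta, BMP and Wnt signalling 3 were lower (5.45%, beside 0.879% of all genes) and 1 was higher (1.82%, beside 0.418%). Bmpr1b, a BMP receptor, had levels of 7.29, 7.35 and 7.70 on the wildtype arrays and 5.97, 5.75 and 5.27 on the Tnfr1,2-/- arrays, and was 3.45-fold lower (log2 change -1.79, SE 0.203, adjusted p = 0.000902, log2 change -0.87 with adjusted p = 0.00223 as the mean of its probe sets). The secreted Wnt antagonists Sfrp2 and Dkk1 were 3.04-fold lower (log2 change -1.60, SE 0.304, adjusted p = 0.0249, called in 1 of 6 refits with an adjusted p of up to 0.131), and 2.44-fold lower (log2 change -1.29, SE 0.235, adjusted p = 0.0194, called in 3 of 6 refits with an adjusted p of up to 0.104, not called with the 6 arrays alone, adjusted p = 0.121). Wnt4 had levels of 7.40, 7.44 and 7.43 on the wildtype arrays and 8.27, 8.52 and 8.34 on the Tnfr1,2-/- arrays, and was 1.94-fold higher (log2 change 0.95, SE 0.131, adjusted p = 0.00305). Without wildtype replicate 2 or 3 the count of lower genes was 1. Of 56 collagens, laminins and other matrix proteins 2 were higher (3.57%, beside 0.418% of all genes) and none was lower. Fbln5, a protein of elastic fibres, had levels of 8.09, 7.83 and 7.62 on the wildtype arrays and 9.25, 9.09 and 9.52 on the Tnfr1,2-/- arrays, and was 2.72-fold higher (log2 change 1.44, SE 0.237, adjusted p = 0.00993, called in 5 of 6 refits with an adjusted p of up to 0.0562, log2 change 0.68 with adjusted p = 0.0819 as the mean of its probe sets). Col8a1, a collagen of vessel walls, had levels of 6.16, 5.82 and 5.74 on the wildtype arrays and 7.39, 7.86 and 9.51 on the Tnfr1,2-/- arrays, with the third mutant array above the others, and was 5.08-fold higher (log2 change 2.35, SE 0.446, adjusted p = 0.0249, called in 2 of 6 refits with an adjusted p of up to 0.116, log2 change 1.10 with adjusted p = 0.0194 as the mean of its probe sets, not called with the 6 arrays alone and SAM, adjusted p = 0.145 and 0.0519). The count was 1 without wildtype replicate 1 or 3 or Tnfr1,2-/- replicate 2 and 0 without wildtype replicate 2. Of 18 integrins only Itga1, the collagen-binding alpha-1 subunit of mesangial cells, was called. It had levels of 9.55, 9.71 and 9.68 on the wildtype arrays and 8.06, 8.06 and 8.97 on the Tnfr1,2-/- arrays, and was 2.43-fold lower (log2 change -1.28, SE 0.262, adjusted p = 0.0369, called in 1 of 6 refits with an adjusted p of up to 0.173, log2 change -1.03 with adjusted p = 0.125 as the mean of its probe sets, not called with the 6 arrays alone and median centring, adjusted p = 0.116 and 0.0562). Itga6 had levels of 8.38, 8.09 and 8.68 on the wildtype arrays and 9.03, 9.40 and 10.05 on the Tnfr1,2-/- arrays and just missed the threshold (1.10, adjusted p = 0.0506).

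**Figure D3:**
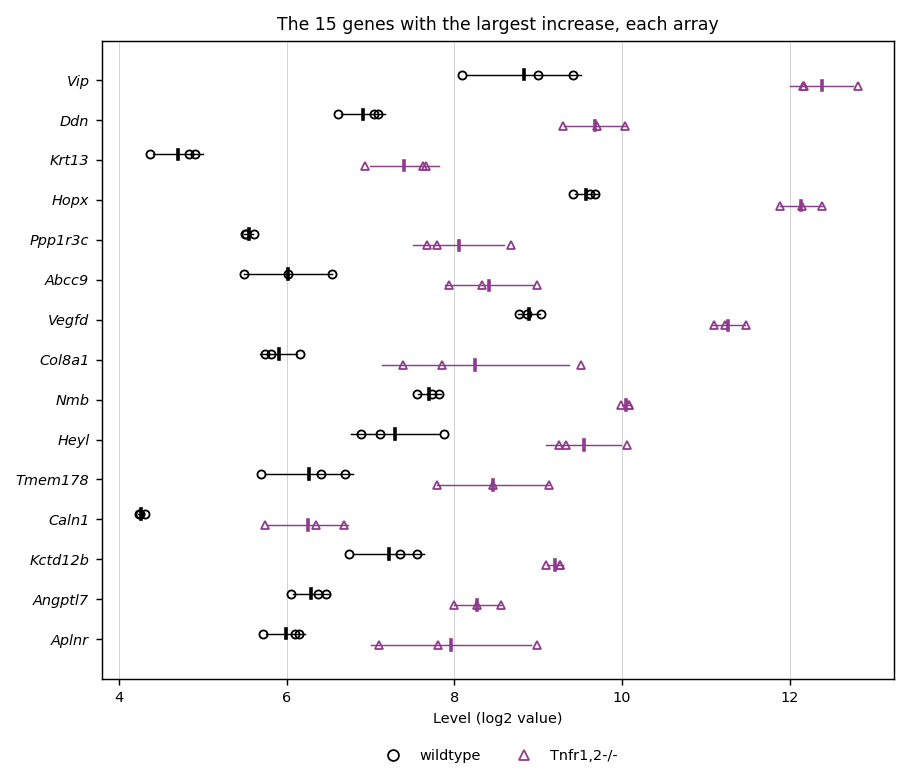
Level (x axis, log2) of the 15 genes with the largest increase on each wildtype array (circles) and each Tnfr1,2-/- array (triangles); vertical bars are means and horizontal lines 1 SD of 3 arrays. Only called genes whose groups did not overlap were drawn, so the mutant arrays lie to the right of the wildtype arrays by this choice. The spread between mutant arrays is widest in Col8a1 and Aplnr.

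Other genes among the 15 with the largest increase came from several functions. Hopx, a homeodomain protein that does not bind DNA, had levels of 9.62, 9.42 and 9.68 on the wildtype arrays and 12.15, 12.39 and 11.88 on the Tnfr1,2-/- arrays. In the mutant it was 5.91-fold higher (log2 change 2.56, SE 0.151, adjusted p = 8.37e-06). Krt13, a keratin of stratified epithelium, had levels of 4.84, 4.37 and 4.91 on the wildtype arrays and 7.66, 7.63 and 6.93 on the Tnfr1,2-/- arrays, and was 6.47-fold higher (log2 change 2.69, SE 0.23, adjusted p = 0.000106, log2 change 1.46 with adjusted p = 0.00213 as the mean of its probe sets). Nmb, neuromedin B, had levels of 7.55, 7.74 and 7.82 on the wildtype arrays and 10.09, 9.99 and 10.08 on the Tnfr1,2-/- arrays, and was 5.09-fold higher (log2 change 2.35, SE 0.234, adjusted p = 0.000372). The mutant levels of Nmb lay close together. Ppp1r3c, which targets a phosphatase to glycogen, was 5.69-fold higher (log2 change 2.51, SE 0.227, adjusted p = 0.000183, log2 change 1.43 with adjusted p = 0.00143 as the mean of its probe sets). Ddn, dendrin of the podocyte slit diaphragm, which is not on the podocyte marker list, had levels of 7.09, 6.61 and 7.04 on the wildtype arrays and 9.30, 10.04 and 9.70 on the Tnfr1,2-/- arrays, and was 6.82-fold higher (log2 change 2.77, SE 0.564, adjusted p = 0.0361, called in 0 of 6 refits with an adjusted p of up to 0.18). Tmem178 was 4.6-fold higher (log2 change 2.20, SE 0.367, adjusted p = 0.0107, called in 4 of 6 refits with an adjusted p of up to 0.0628, not called with the 6 arrays alone, adjusted p = 0.0632), Kctd12b was 3.97-fold higher (log2 change 1.99, SE 0.293, adjusted p = 0.00465), and Caln1 was 3.97-fold higher (log2 change 1.99, SE 0.262, adjusted p = 0.00233, log2 change 1.09 with adjusted p = 0.00165 as the mean of its probe sets).

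The genes of highest wildtype level among those called higher changed by about 2-fold. Slc12a2, the sodium, potassium and chloride cotransporter NKCC1, had levels of 11.69, 11.40 and 11.70 on the wildtype arrays and 12.58, 12.52 and 12.81 on the Tnfr1,2-/- arrays, and was 2.06-fold higher (log2 change 1.04, SE 0.161, adjusted p = 0.00648). Errfi1, a feedback inhibitor of the EGF receptor, had levels of 10.94, 10.73 and 10.81 on the wildtype arrays and 11.84, 12.00 and 12.40 on the Tnfr1,2-/- arrays, and was 2.38-fold higher (log2 change 1.25, SE 0.178, adjusted p = 0.0037, log2 change 0.93 with adjusted p = 0.289 as the mean of its probe sets). Mecom, a zinc-finger transcription factor, was 2.25-fold higher (log2 change 1.17, SE 0.178, adjusted p = 0.00601, log2 change 0.53 with adjusted p = 0.0409 as the mean of its probe sets), Mbnl3 was 1.89-fold higher (log2 change 0.92, SE 0.156, adjusted p = 0.0118, called in 4 of 6 refits with an adjusted p of up to 0.0777, log2 change 1.15 with adjusted p = 0.316 as the mean of its probe sets, not called with the 6 arrays alone, adjusted p = 0.0853), and Sh3bp5 was 1.85-fold higher (log2 change 0.89, SE 0.179, adjusted p = 0.0341, called in 2 of 6 refits with an adjusted p of up to 0.174, log2 change 0.56 with adjusted p = 0.0911 as the mean of its probe sets, not called with the 6 arrays alone and median centring, adjusted p = 0.138 and 0.0666).

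**Figure D4:**
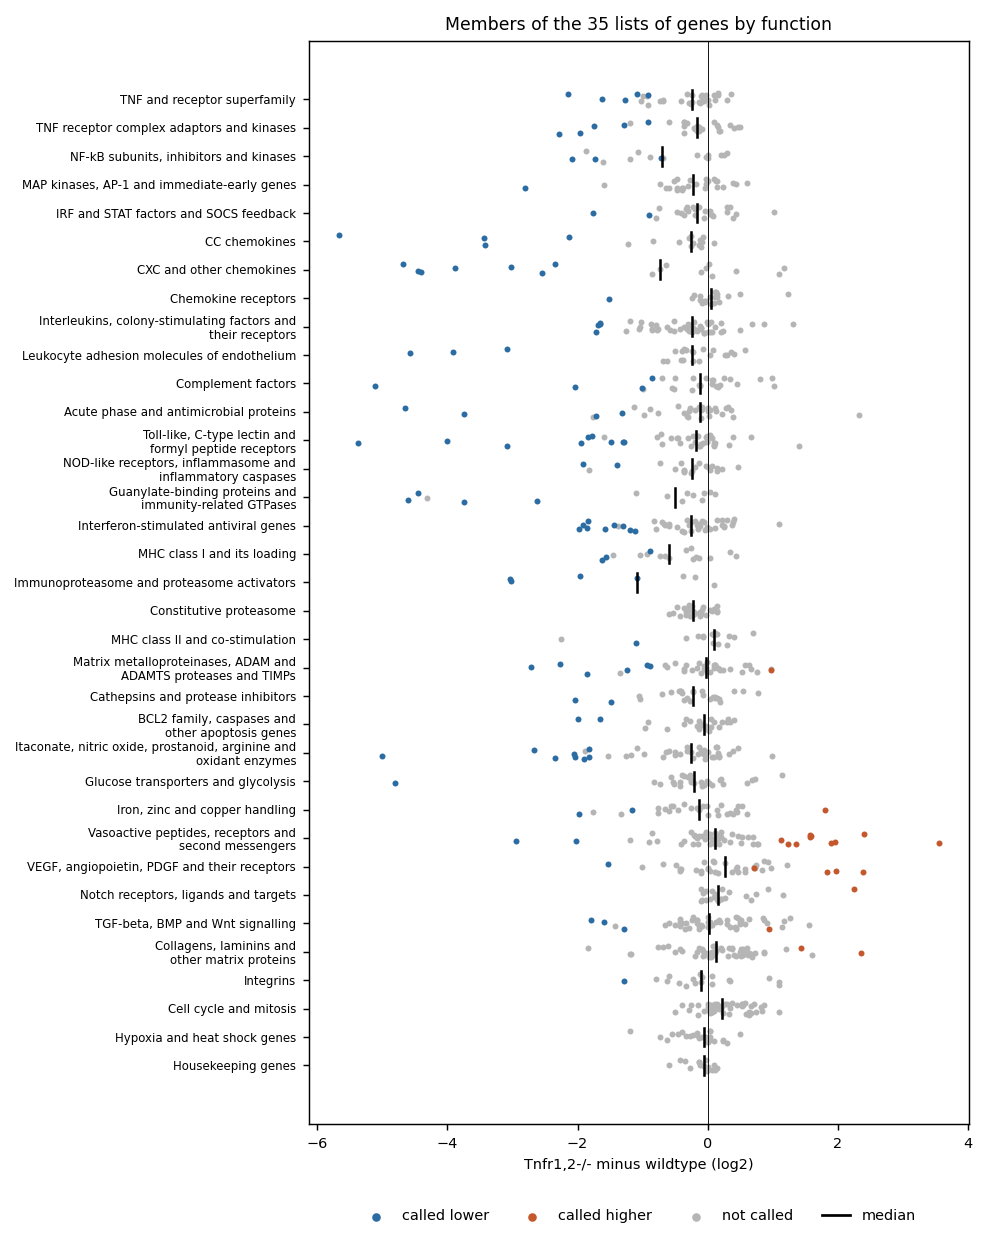
Tnfr1,2-/- minus wildtype difference (x axis, log2) of each measured member of 35 gene lists (rows); blue points are members called lower, orange points members called higher, grey points members not called, and black bars the medians. Called members lie to the left in the lists of inflammation and antigen presentation and mostly to the right in the lists of vessel tone and vessel growth, where Ptgir, Rgs17 and Nrp2 lie to the left, and most members of every list but the immunoproteasome were not called.

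The lists of general cell state held no gene called by limma. None of 49 cell cycle genes was called by limma or SAM and 4 had an unadjusted p under 0.05, with a median change of 0.22 and 7 negative changes; Ccna2 had levels of 8.16, 7.09 and 7.70 on the wildtype arrays and 8.49, 8.09 and 8.57 on the Tnfr1,2-/- arrays (0.74, adjusted p = 0.358). None of 26 hypoxia and heat shock genes and none of 17 housekeeping genes was called by limma, with 5 and 1 genes at an unadjusted p under 0.05, 2 and 0 called lower by SAM, and medians of -0.06 and -0.05. Gapdh had levels of 13.13, 13.06 and 12.71 on the wildtype arrays and 12.97, 12.66 and 12.03 on the Tnfr1,2-/- arrays (log2 change -0.42, adjusted p = 0.704).

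Markers of the glomerular cell types stayed at high levels in both genotypes. Of 19 podocyte markers none was called by limma or SAM and 5 had an unadjusted p under 0.05, and their median change was 0.40. Podxl, podocalyxin, had levels of 13.29, 13.01 and 13.27 on the wildtype arrays and 13.58, 13.76 and 13.42 on the Tnfr1,2-/- arrays, and Synpo, synaptopodin, levels of 11.71, 11.05 and 11.55 on the wildtype arrays and 12.53, 12.32 and 11.95 on the Tnfr1,2-/- arrays (0.83, adjusted p = 0.218). Trpc6, a cation channel of podocytes, went the other way without overlap, with levels of 5.76, 5.21 and 5.99 on the wildtype arrays and 4.73, 4.27 and 5.02 on the Tnfr1,2-/- arrays (log2 change -0.98, adjusted p = 0.186), and Actn4, alpha-actinin 4, had a change of -0.14 (adjusted p = 0.929). The summed level of the podocyte markers ran from 15.05 to 15.42 in wildtype and from 15.46 to 15.76 in Tnfr1,2-/- glomeruli, so that the groups did not overlap. Of 21 endothelial markers none was called by limma, 2 were called higher by SAM and 7 had an unadjusted p under 0.05, with a median of 0.39 and summed levels of 13.76 to 14.12 in wildtype and 14.08 to 14.52 in Tnfr1,2-/- glomeruli, which overlapped. Flt1, VEGF receptor 1, had levels of 7.23, 6.79 and 8.15 on the wildtype arrays and 8.61, 8.51 and 8.70 on the Tnfr1,2-/- arrays (1.22, adjusted p = 0.144), and Emcn, endomucin, levels of 10.75, 10.48 and 10.80 on the wildtype arrays and 11.33, 11.48 and 10.94 on the Tnfr1,2-/- arrays (0.57, adjusted p = 0.289). Of 23 mesangial and smooth muscle markers limma called Sfrp2 alone, SAM called 2 lower and 1 higher, and Itga8, an integrin of mesangial cells, had levels of 10.41, 10.31 and 10.50 on the wildtype arrays and 11.28, 11.44 and 11.32 on the Tnfr1,2-/- arrays (0.94, adjusted p = 0.0562). The part of a small shift in podocyte and endothelial share in the genes called higher was not tested.

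Parietal epithelial markers had the largest median, 0.78 over 10 genes, and summed levels of 11.42 to 12.25 in wildtype and 11.66 to 12.74 in Tnfr1,2-/- glomeruli, which overlapped. Krt19 had levels of 6.12, 5.18 and 5.62 on the wildtype arrays and 7.85, 7.27 and 7.13 on the Tnfr1,2-/- arrays, and was 3.42-fold higher (log2 change 1.77, SE 0.3, adjusted p = 0.0118, called in 5 of 6 refits with an adjusted p of up to 0.0683, not called with the 6 arrays alone, adjusted p = 0.0502); Krt8 had levels of 9.07, 7.52 and 8.47 on the wildtype arrays and 10.01, 9.08 and 10.45 on the Tnfr1,2-/- arrays (1.49, adjusted p = 0.193), while Cldn1 had a change of -0.61 (adjusted p = 0.695). Krt13, the other keratin called, is on no marker list. None of 19 tubular markers was called by limma or SAM or had an unadjusted p under 0.05, and 11 of them were under the array median on all 6 arrays; Lrp2, megalin of the proximal tubule, had levels of 4.78, 3.47 and 3.82 on the wildtype arrays and 4.96, 3.91 and 5.92 on the Tnfr1,2-/- arrays. Of the 20 macrophage markers 4 had an unadjusted p under 0.05 and 1 was called higher by SAM. Lyz2 had levels of 11.48, 12.14 and 11.90 on the wildtype arrays and 10.91, 11.47 and 10.47 on the Tnfr1,2-/- arrays (log2 change -0.89, adjusted p = 0.378), and Mertk, a receptor for dying cells, levels of 10.04, 10.40 and 10.49 on the wildtype arrays and 11.51, 11.60 and 11.66 on the Tnfr1,2-/- arrays (1.28, adjusted p = 0.352). None of 14 lymphocyte markers was called by limma or SAM, with 1 at an unadjusted p under 0.05 and Cd3e at 6.34, 6.53 and 6.20 on the wildtype arrays and 6.21, 6.42 and 6.28 on the Tnfr1,2-/- arrays.

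**Figure D5:**
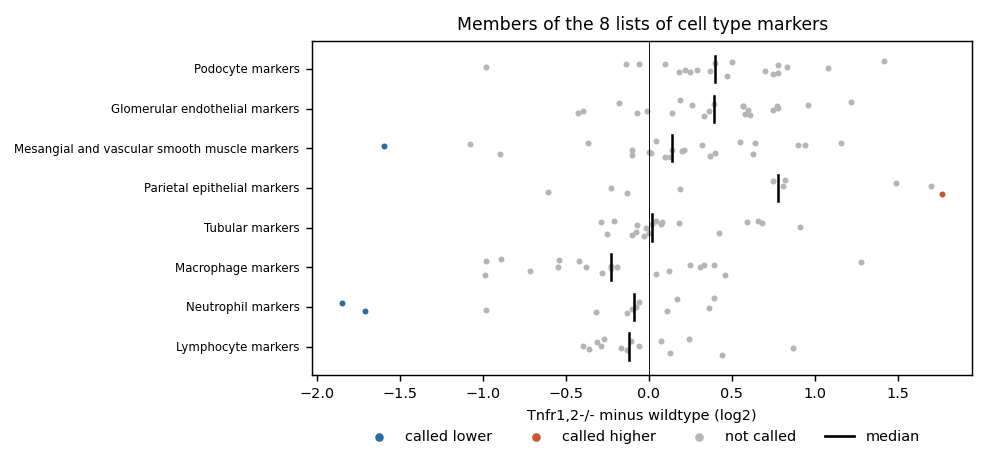
Tnfr1,2-/- minus wildtype difference (x axis, log2) of each measured member of 8 lists of cell type markers (rows); blue points are members called lower, orange points called higher, grey points not called, and black bars the medians. Of all marker genes shown 3 were called lower (Sfrp2, Camp and Mmp9) and 1 higher (Krt19).

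Of the called genes, 58 lower and 55 higher ones were on no list, and some are named here after their values were seen. Adhfe1, a mitochondrial alcohol dehydrogenase, had levels of 7.88, 8.09 and 8.49 on the wildtype arrays and 5.07, 4.98 and 5.39 on the Tnfr1,2-/- arrays, and was 8.02-fold lower (log2 change -3.0, SE 0.165, adjusted p = 6.23e-06, log2 change -1.69 with adjusted p = 1.62e-05 as the mean of its probe sets, log2 change -1.93 with adjusted p = 0.00252 without ambiguous probe sets). Slc15a3, a lysosomal transporter of peptides, had levels of 10.72, 10.74 and 10.33 on the wildtype arrays and 7.89, 7.05 and 7.35 on the Tnfr1,2-/- arrays, and was 8.96-fold lower (log2 change -3.16, SE 0.43, adjusted p = 0.00289). Slfn2 of the Schlafen family was 5.57-fold lower (log2 change -2.48, SE 0.335, adjusted p = 0.00278). Both groups lay more than 1 unit apart for these 3 genes. Amino acid carriers among them were Slc7a2, which imports arginine and lysine, and Slc7a11, the cystine importer. Slc7a2 was 4.03-fold lower (log2 change -2.01, SE 0.226, adjusted p = 0.000879, log2 change -1.41 with adjusted p = 0.000358 as the mean of its probe sets), and Slc7a11 was 2.69-fold lower (log2 change -1.43, SE 0.144, adjusted p = 0.000392). Rarres2, which encodes chemerin, was 3.53-fold lower (log2 change -1.82, SE 0.271, adjusted p = 0.00517, log2 change -1.20 with adjusted p = 0.0148 as the mean of its probe sets, log2 change 0.15 with adjusted p = 0.831 without ambiguous probe sets). Tifa, an adaptor of TRAF6, was 2.07-fold lower (log2 change -1.05, SE 0.145, adjusted p = 0.00306). Among growth factors Gdnf was 2.82-fold lower (log2 change -1.49, SE 0.224, adjusted p = 0.0053), and its relative Artn was 2.39-fold lower (log2 change -1.25, SE 0.247, adjusted p = 0.0318, called in 2 of 6 refits with an adjusted p of up to 0.164, not called with the 6 arrays alone, adjusted p = 0.0669).

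Among genes called higher and on no list, Kcne4, a subunit of potassium channels, had levels of 8.37, 8.44 and 8.71 on the wildtype arrays and 10.15, 10.13 and 10.50 on the Tnfr1,2-/- arrays, and was 3.37-fold higher (log2 change 1.75, SE 0.168, adjusted p = 0.000268). Qpct, which forms pyroglutamate at the ends of peptides, was 3.52-fold higher (log2 change 1.81, SE 0.213, adjusted p = 0.00114). Oxtr, the oxytocin receptor, had levels of 5.77, 5.42 and 5.32 on the wildtype arrays and 6.51, 6.98 and 8.14 on the Tnfr1,2-/- arrays, and was 3.26-fold higher (log2 change 1.70, SE 0.323, adjusted p = 0.0249, called in 2 of 6 refits with an adjusted p of up to 0.119, log2 change 0.97 with adjusted p = 0.0596 as the mean of its probe sets, not called with the 6 arrays alone and SAM, adjusted p = 0.19 and 0.0643). Abcg2 and Abcb1a, drug efflux pumps of capillary endothelium, were 2.53-fold higher (log2 change 1.34, SE 0.172, adjusted p = 0.00207), and 2.34-fold higher (log2 change 1.23, SE 0.245, adjusted p = 0.0336, called in 2 of 6 refits with an adjusted p of up to 0.166, not called with the 6 arrays alone and SAM, adjusted p = 0.149 and 0.0519). Mef2c, a transcription factor of endothelium and muscle, was 2.19-fold higher (log2 change 1.13, SE 0.152, adjusted p = 0.00262, log2 change 0.80 with adjusted p = 0.544 as the mean of its probe sets). Igfbp3 was 2.72-fold higher (log2 change 1.44, SE 0.299, adjusted p = 0.0403, called in 0 of 6 refits with an adjusted p of up to 0.212, log2 change 1.14 with adjusted p = 0.095 as the mean of its probe sets).

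The single mutants were measured against the same 3 wildtype arrays, so their changes are not independent of those above. Of the 160 genes called lower, 154 were also at least 1.5-fold lower in Tnfr1-/- glomeruli and 6 in Tnfr2-/- glomeruli, with median changes of -1.42 and 0.06 beside -1.67 in the double mutant. Of the 76 called higher, 74 and 2 were past 1.5-fold, with medians of 1.35 and 0.14 beside 1.4. The shares of all genes past 1.5-fold in the single mutants were not counted, so these counts have no background beside them. The genes were chosen against these same wildtype arrays, so part of the agreement is built in. Ccl2 changed by -5.56 in Tnfr1-/- and -0.02 in Tnfr2-/- glomeruli. A few genes departed from this. Clec4e changed by -4.61 in Tnfr1-/- and -1.49 in Tnfr2-/- glomeruli. Angptl7 changed by -0.23 in Tnfr1-/- and 1.29 in Tnfr2-/- glomeruli, beside 1.98 in the double mutant, and Znf41-ps by -0.25, -1.61 and -1.74.

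The genes near the disrupted loci were counted apart. Within 10 Mb of Tnfrsf1a on chromosome 6, 8 of 222 genes were lower and 1 higher (4.05%), and within 10 Mb of Tnfrsf1b on chromosome 4, 2 of 239 were lower and 3 higher (2.09%), beside 1.26% of 17572 other genes of known position. The lower genes near Tnfrsf1a were Tnfrsf1a itself, Clec4e, Clec4n, Olr1, Tapbpl, Bid, C1s1 and C1ra, and the higher gene was Apold1. Those near Tnfrsf1b were Tnfrsf1b and Znf41-ps, which were lower, and Angptl7, Errfi1 and Wnt4, which were higher. Angptl7 had levels of 6.05, 6.37 and 6.47 on the wildtype arrays and 8.00, 8.56 and 8.27 on the Tnfr1,2-/- arrays, and was 3.94-fold higher (log2 change 1.98, SE 0.281, adjusted p = 0.0037). Znf41-ps, a pseudogene of a zinc finger gene, had levels of 7.32, 7.11 and 7.62 on the wildtype arrays and 5.57, 5.40 and 5.85 on the Tnfr1,2-/- arrays, and was 3.34-fold lower (log2 change -1.74, SE 0.21, adjusted p = 0.00133). For these neighbours, loss of the receptor and flanking sequence of another strain cannot be told apart in this comparison.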

How the data were processed

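The authors hybridised RNA from TNF-stimulated glomeruli to Affymetrix mouse expression arrays and deposited log2 values normalized together over 12 arrays by robust multi-array averaging (RMAExpress). Replicate arrays were not pooled. Precision is limited by the 3 arrays per genotype, and 3 against 3 arrays cannot go below an exact permutation p of 0.1.

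From these values, 64 control probe sets and those without a single symbol were left out, and 1 probe set per gene was kept, the one with the highest mean over 12 arrays. Linear models were fitted with limma 3.58.1 in R 4.3.3 to all 12 arrays (8 residual degrees of freedom), with Benjamini-Hochberg adjustment over 18194 genes. The spread is therefore shared with the single mutants. Leave-one-out refits dropped 1 of the 6 arrays. Promoter intervals are exact (Clopper-Pearson). SAM as in the methods, other summaries, scalings, filters, weights and blocks were alternatives.

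The comparison, the gene lists and their members were chosen with earlier results of these data known. Named genes were both receptors, the 15 largest decreases and increases without overlap, up to 6 called members of each list (or the 2 of smallest p), the 3 highest members of each marker list, and the 6 genes of highest wildtype level in each direction. Others were named after their values were seen.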

Additional observations from a re-analysis of the deposited data

How the results depend on the processing

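With 3 arrays per genotype 1 array can decide a call, levels near background give compressed changes, and the single mutant arrays supply part of the spread. The counts of 160 lower and 76 higher genes stayed within 1.5-fold under the mean of all probe sets, a mean-variance trend, median centring, cyclic loess, dim probe sets left out, ambiguous probe sets left out and SAM (225 lower and 112 higher), but for 46 higher genes with the 6 arrays alone. Array weights gave 455 lower and 585 higher genes, which included the 160 and the 76, and a block for the array set gave 243 and 145. Leaving out 1 array gave 97 to 144 lower and 33 to 103 higher genes, the highest count of higher genes being without Tnfr1,2-/- replicate 1. The replicate number as a block gave 328 lower and 269 higher genes. Same-numbered wildtype and Tnfr1,2-/- arrays had correlations of deviations of 0.61, -0.13 and 0.48 for replicates 1, 2 and 3. Pairs of unlike number ran from -0.69 to 0.41. No label states a pairing, and whether the numbers pair the samples was not tested.

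Of the 160 and 76 called genes together, 85 lost the call with the 6 arrays alone, 57 as the mean of their probe sets, 14 under median centring, 11 under SAM, 10 under cyclic loess, 8 under the trend and 7 without ambiguous probe sets. Among these, Tnfrsf1a changed by -1.27 with the 6 arrays alone (adjusted p = 0.0546), and Tnfrsf1b by -1.12 as the mean of its probe sets (adjusted p = 0.0551). Direction turned in genes that were not called: under a block for the array set for Actn4 (0.11) and Esam (0.28), with array weights for Cdh16 (-0.07) and Kap (0.14), and with the mean of probe sets for Csf1r (-0.20). Without 1 array, the lowest and highest changes were -1.43 and -1.18 for Tnfrsf1a, -0.50 and 0.14 for Actn4, -0.49 and 0.29 for Esam, -0.26 and 0.07 for Pdgfra, -0.11 and 0.13 for Kap, -0.10 and 0.77 for Umod, -0.16 and 0.45 for Csf1r, -0.09 and 0.81 for Lcn2, -0.79 and 0.02 for Cd79a and -0.14 and 0.03 for Cd3e. The share of promoters with a kappaB match was 67.8% (lower), 71.4% (higher) and 66.3% (all genes) with the looser motif, which matches more sequences by construction, and 21.5%, 1.79% and 8.23% on 1 strand. The causes of the other changes were not tested.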

Other observations

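Gbp2b, a guanylate-binding protein close in sequence to other members of its family, had the widest range of all genes between wildtype arrays, 7.06 on the log2 scale. Its levels were 10.79, 4.39 and 11.45 on the wildtype arrays and 4.36, 4.90 and 4.43 on the Tnfr1,2-/- arrays. On the single mutant arrays it was at 4.38, 4.38 and 4.77 in Tnfr1-/- and at 12.06, 11.75 and 12.34 in Tnfr2-/- glomeruli. The second wildtype array thus lay beside the mutant arrays that lack TNFR1; whether this sample differs from its label was not tested. The log2 change of -4.32 did not pass the test in limma (adjusted p = 0.277).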
